A study of Homo sapiens with 4 samples.

Results

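The INO80-specific subunits are the proteins that the human INO80 chromatin remodeling complex does not share with other remodelers: the ATPase INO80, the actin-related proteins Arp5 (gene ACTR5) and Arp8 (gene ACTR8), INO80B, INO80C, INO80D, INO80E, NFRKB, MCRS1 and TFPT. They were taken as every array probe whose RefSeq accession maps to one of these 10 genes, which gave 13 of the 41000 probes and 10 of the 18203 named genes. There were 7 genes with 1 probe, and INO80, INO80D and ACTR8 had 2 probes each. The comparison asks whether the transcripts of the other subunits differ from wild type when the gene of one subunit has been disrupted.

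Total RNA came from 4 cultures of Nalm-6, an established human pre-B cell line, and each culture was measured on 1 one-colour Agilent array. The groups were wild type (WT), Arp5 KO, a line in which both alleles of the Arp5 gene were disrupted by gene targeting, Arp8 KO, and a culture labelled Arp8 OE, for Arp8 overexpression. The paper took its Arp8 KO cells from earlier work, where it states that conditional knockout of Arp8 was lethal to cells. Its Arp5 KO cells were viable and grew slightly slower than wild type. The part of this difference between the knockouts in the results was not tested. The titles and the treatment protocol give 20 uM heme for 12 hours for every culture. The treatment field, however, reads heme for WT and Arp8 OE and no heme for both knockouts, and the source field reads without heme for Arp5 KO and with heme for Arp8 KO. Whether the knockouts received heme is therefore not settled, and in any comparison that includes a knockout, that of the knockouts with each other too, the genotype and the treatment cannot be told apart. How many clones of each line were grown is not given in the sources used here, and each line was measured once.

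The INO80 complex uses ATP to slide nucleosomes along DNA and acts in transcription, replication and DNA repair. The INO80 protein is at the same time the motor and the scaffold. Its ATPase domain carries a module of Arp5 with INO80C and the hexameric ring of RUVBL1 and RUVBL2, its HSA domain carries Arp8, actin and the actin-related protein ACTL6A, and a further region carries subunits found in animals but not in yeast. Both Arp5 and Arp8 take part in nucleosome binding and remodeling.

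A level is given here as log2 of the probe's processed signal divided by the 75th percentile of its array, so that 0 is the 75th percentile, and a difference is the level on one array minus that on another. With 1 array per group there is no replicate, no test was made, and the spread between cultures is unknown. Errors are technical: an SD for a difference from replicate spots of other probes, and the error that the scanner software gives for the signal. The SD uses the probes nearest in brightness that were well above background. Among dim probes it no longer follows brightness and may be too small: in WT it was 0.11 for INO80B and both INO80D probes. Their software errors there were 0.17, 0.21 and 0.44, the last for INO80D probe A_23_P142756. Levels of different probes are not compared, since probes differ in brightness. All 4 arrays carried the same slide and scan time, between 55.9% and 57.4% of probes on each were well above background, and 75th percentiles ranged from 647 to 740. All 15 probes of 10 pre-B cell genes were well above background on every array (summed level relative to the 75th percentile 344 on the WT and 344 on the Arp5 KO array, 318 for Arp8 KO, 402 for Arp8 OE). These sums rest on the brightest probes, and single markers differed from WT: past 1.5-fold were 2 of the 15 probes in Arp5 KO (DNTT higher, CD79A lower), 5 in Arp8 KO (DNTT and both RAG1 probes higher, CD79A and VPREB1 lower) and 3 in Arp8 OE (DNTT and both RAG1 probes higher), where 8.84%, 21.3% and 13.6% of all tested probes were. Their differences ran from -0.65 to 0.84, from -1.26 to 1.78 and from -0.20 to 1.104, and these genes are named because their values stood apart. Of 13 probes for markers of other blood and tissue cell types, 2, 2, 5 and 4 were well above background in the order of the sums, and their summed levels were 0.461, 0.415, 0.609 and 0.637. The part of either marker list in the results was not tested. Of the 13 subunit probes, 12 were well above background on all 4 arrays and 1, for INO80D, on 1 array.

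**Figure D1:**
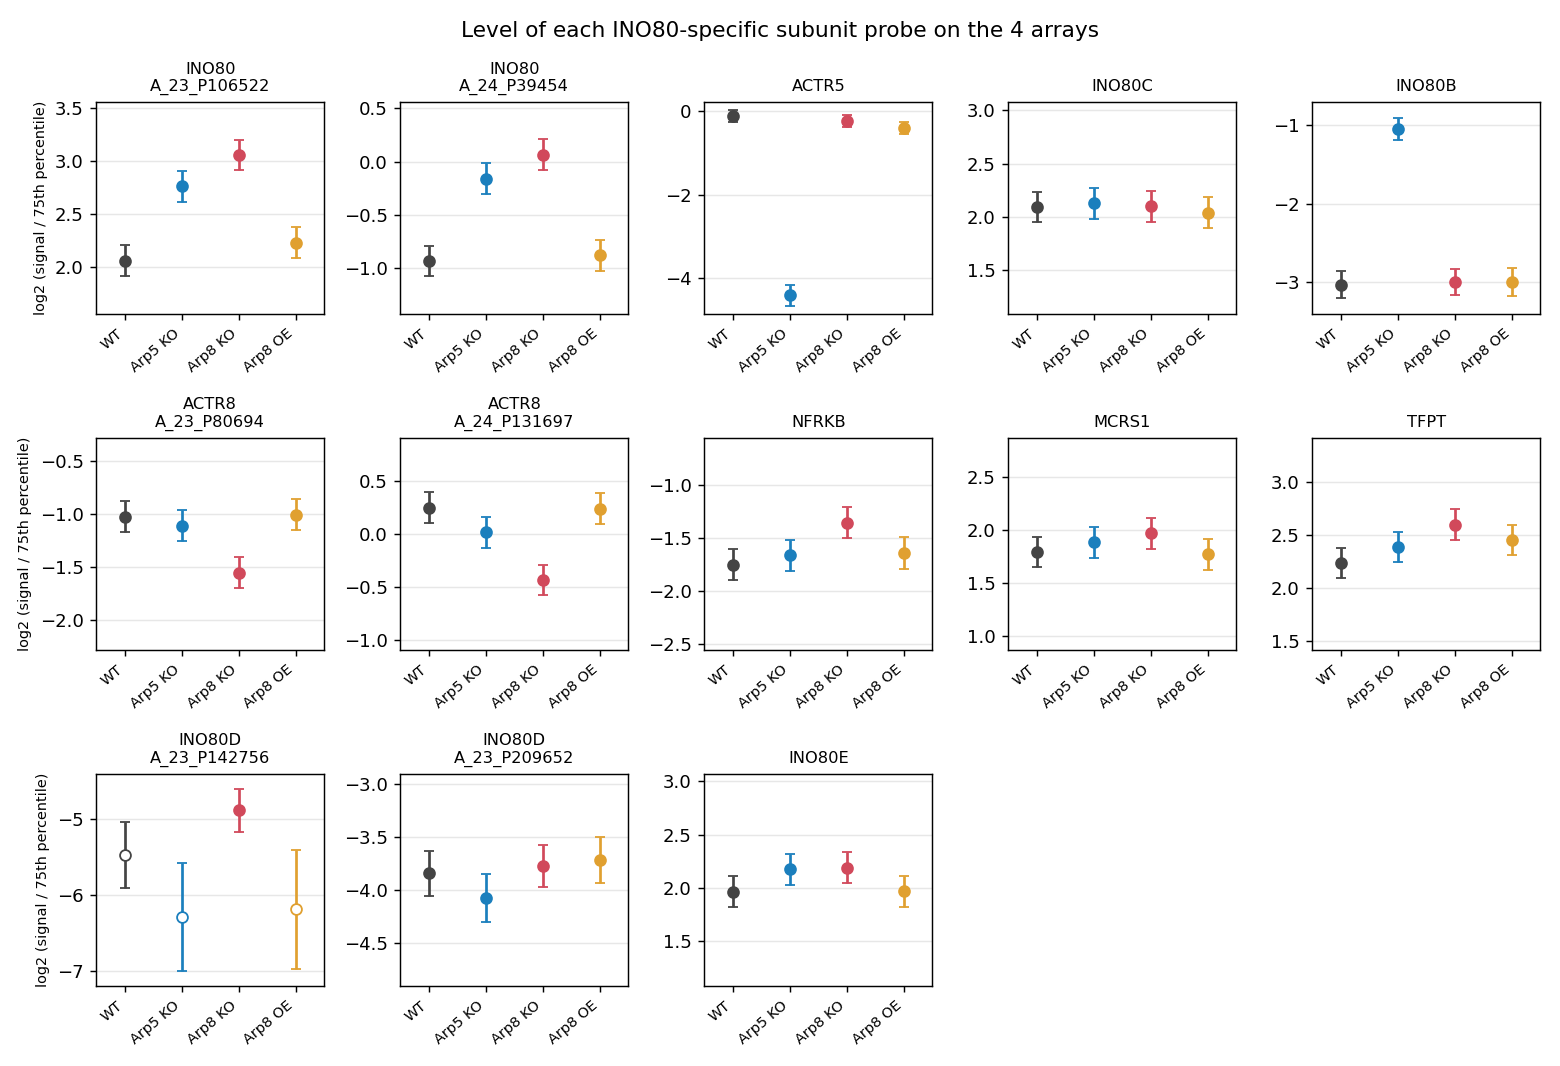
Level of each of the 13 subunit probes (log2 of signal over the array's 75th percentile, vertical axis) on the 4 arrays, with 1 point per array and bars for the scanner software's error of the signal. Open points were not well above background. The vertical axis differs between panels. Both INO80 probes sit higher in the knockouts than on the remaining arrays, ACTR5 is low in Arp5 KO, and INO80B is high in Arp5 KO.

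The targeted genes were read first. ACTR5, which codes for Arp5, had a level of -4.40 in Arp5 KO, against -0.13 in WT, -0.24 in Arp8 KO, and -0.41 with Arp8 OE. Its signal was 34.9 in Arp5 KO and between 488 and 672 on the other arrays. The signal in Arp5 KO was thus 19.3-fold below WT (difference -4.27, technical SD 0.12, software error 0.29) and still well above background. With another background correction (normexp, which adds an offset) the difference was -2.84, so the fold depends on how background is removed. Only 6 of the 24285 probes tested in this comparison, 0.0247%, were at least as far below WT, ACTR5 included. Whether the probe lies in the disrupted part of the gene is not given in the sources used here.

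ACTR8, which codes for Arp8, was lowest in the Arp8 KO array. The first probe, A_23_P80694, had a level of -1.55 there, against -1.02 in WT, -1.01 in Arp8 OE and -1.11 in Arp5 KO. The second probe, A_24_P131697, had -0.44 there, against 0.25, 0.23 and 0.01 in the same order. In Arp8 KO the signals were 1.44-fold and 1.60-fold below WT (differences -0.53, technical SD 0.10, and -0.68, technical SD 0.08). Of all probes tested, 13.1% and 9.02% were at least as far below WT there, so a fall of this size was common on this array. Where the probes lie relative to the disrupted part of ACTR8 is not given in the sources used here, and a probe outside that part does not check the label. In bulk RNA, fewer cells with a transcript and less of it per cell cannot be told apart.

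The array labelled Arp8 OE did not show more ACTR8 signal than WT: the differences were 0.02 and -0.01, each under its technical SD of 0.10 and 0.08. These probes would not see a transgene that lacks their sequence. The label is used below as a name only.

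Among the other subunits, the gene that lay more than 1.5-fold above WT in both knockouts was INO80 itself, which codes for the ATPase. Probe A_23_P106522 had levels of 2.06 in WT and 2.23 in Arp8 OE, against 2.76 in Arp5 KO and 3.06 in Arp8 KO. Probe A_24_P39454 had -0.94 and -0.88, against -0.16 and 0.06. By both probes WT and Arp8 OE were low and the knockouts high. Arp8 OE lay above WT by 0.17 on the first probe, which is 2.33 technical SDs and less than the software error of 0.20. On the second probe it lay above WT by 0.06, within the technical SD of 0.09. As unscaled signals, the first probe read 3069 and 3041 against 5022 and 5457, and the second read 384 and 352 against 662 and 685.

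Against WT, INO80 was 1.63-fold and 1.71-fold higher in Arp5 KO by the 2 probes (differences 0.70 and 0.78, technical SD 0.07 and 0.09, software error 0.20 and 0.21). In Arp8 KO the first probe lay just below 2-fold and the second just above it (differences 0.995 and 1.0005, technical SD 0.07 and 0.09). In Arp8 OE the differences were 0.17 and 0.06. The probes differed by 0.07 in Arp5 KO and 0.0050 in Arp8 KO, against a median gap of 0.11 and 0.18 between the probes of other genes with 2 probes. Of the genes with exactly 2 probes tested, 41 of 3280 (1.25%) had both past 1.5-fold above WT in Arp5 KO and 114 of 3313 (3.44%) had both in Arp8 KO. Counted by single probes, 3.06% and 2.52% of those tested were at least as far above WT as the INO80 probes in Arp5 KO, and 3.40% and 3.36% in Arp8 KO.

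Both of these comparisons use the same WT array, so a low INO80 value in that culture would raise both. Set against the Arp8 OE array instead, INO80 was higher by 0.53 and 0.72 in Arp5 KO and by 0.83 and 0.94 in Arp8 KO. The direction is thus the same from either reference, while one probe in Arp5 KO no longer passes 1.5-fold. The 2 arrays with more INO80 signal are also the 2 whose treatment field reads no heme. Between the knockouts, INO80 was higher in Arp8 KO by 0.29 and 0.22, which is 4.14 and 2.77 technical SDs and less than 2 software errors of 0.20.

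**Figure D2:**
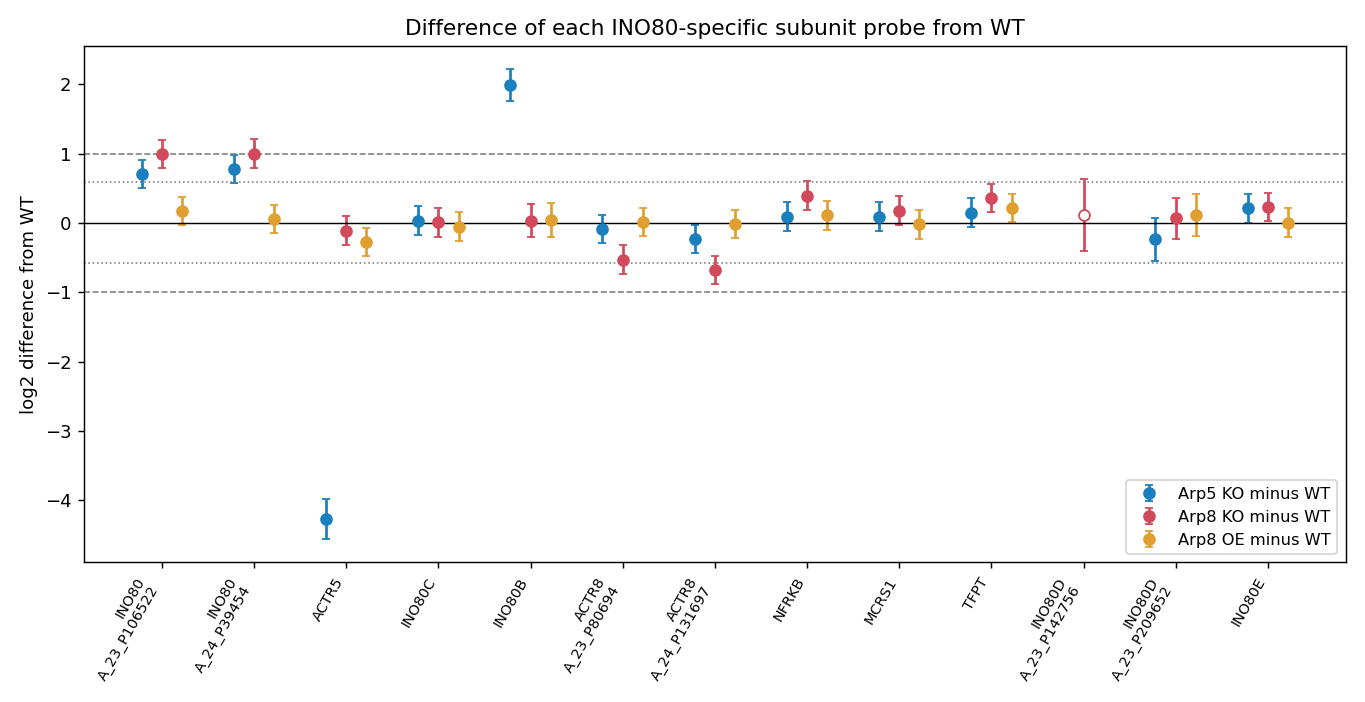
Difference of each subunit probe from WT (log2, vertical axis) on the 3 other arrays, with bars for the scanner software's error of the difference. The open point is a lower bound, dotted lines mark 1.5-fold and dashed lines 2-fold. The points past 1.5-fold are ACTR5, INO80B and both INO80 probes in Arp5 KO, and 1 ACTR8 probe and both INO80 probes in Arp8 KO.

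The windows just before the transcription starts of INO80 and INO80B are shown because these are the members with a probe more than 1.5-fold above WT. They are the 250 bases before the start in RefSeq, assembly GRCh38.p14, 5′ to 3′ on the strand of the gene: chr15:41116281-41116530 on the minus strand for INO80 and chr2:74454837-74455086 on the plus strand for INO80B. Capitals mark a match to the ETS motif CCGGAAG, and all else is in lower case.
INO80: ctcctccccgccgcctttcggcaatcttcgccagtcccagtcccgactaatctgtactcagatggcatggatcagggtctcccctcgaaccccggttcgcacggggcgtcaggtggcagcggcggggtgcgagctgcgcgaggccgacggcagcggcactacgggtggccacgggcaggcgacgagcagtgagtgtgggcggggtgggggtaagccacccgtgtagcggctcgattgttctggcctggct
INO80B: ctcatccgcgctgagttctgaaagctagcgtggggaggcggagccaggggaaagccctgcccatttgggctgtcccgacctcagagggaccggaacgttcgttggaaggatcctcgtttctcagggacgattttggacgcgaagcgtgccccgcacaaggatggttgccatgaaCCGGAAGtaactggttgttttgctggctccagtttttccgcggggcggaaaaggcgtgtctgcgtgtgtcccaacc
INO80 held no match, on either strand, to that motif or to the motifs of YY1 (GCCATNTT), NRF1 (its palindromic consensus) and the antioxidant response element (TGACNNNGC). The INO80B match runs from position -76 to -70 counted from the start, and 8.52% of all 35116 RefSeq windows of this length hold the ETS motif. A match of letters is not a site in use, and the window of INO80 lacks only these spellings.

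In the Arp5 module, the partner of Arp5, INO80C, was level on all arrays. INO80C, the human counterpart of yeast Ies6, had levels between 2.04 and 2.13, with 2.09 in WT, 2.10 in Arp8 KO, 2.13 for Arp5 KO, and 2.04 for Arp8 OE. Its differences from WT, 0.03, 0.01 and -0.05, were all within the technical SD. The value in Arp5 KO is thus that of a bright probe whose difference was small beside its software error of 0.20, in the array where ACTR5 was 19.3-fold lower.

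INO80B, the counterpart of yeast Ies2, which activates the remodeler, had the highest difference of all members in Arp5 KO. Its level there was -1.05, against -3.04 in WT, -3.00 in Arp8 KO and -3.00 for Arp8 OE. The 3 low arrays lay within 0.04 of each other. The signal was 89.4 in WT and 357 in Arp5 KO (software errors 10.7 and 36.2), which is 3.97-fold higher (difference 1.99, technical SD 0.13, software error 0.23), and 0.527% of tested probes were at least as far above WT. With normexp the difference was 1.23.

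This value rests on 1 spot, and spots next to it were also bright on the Arp5 KO array alone. Of the 6 adjacent spots, the spot of CDH7 had a signal of 363 in Arp5 KO against 11.7 in WT, 8.21 in Arp8 KO and 5.77 for Arp8 OE, and that of ZNF223 had 152 against 35.3, 36.7 and 13.8. Their levels in Arp5 KO were 4.95 and 1.87 above the highest of the other arrays. Within 60 pixels, 3 of 56 spots were more than 2-fold brighter in Arp5 KO than on each other array, against 0.883% of all spots. Of tested probes with a single spot, 334 of 24099 (1.39%) had at least 2 such adjacent spots, and among the probes past 2-fold higher in Arp5 KO it was 119 of 411 (29.0%). No other subunit probe had an adjacent spot of this kind. The part of these neighbours in the INO80B value was not tested.

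**Figure D3:**
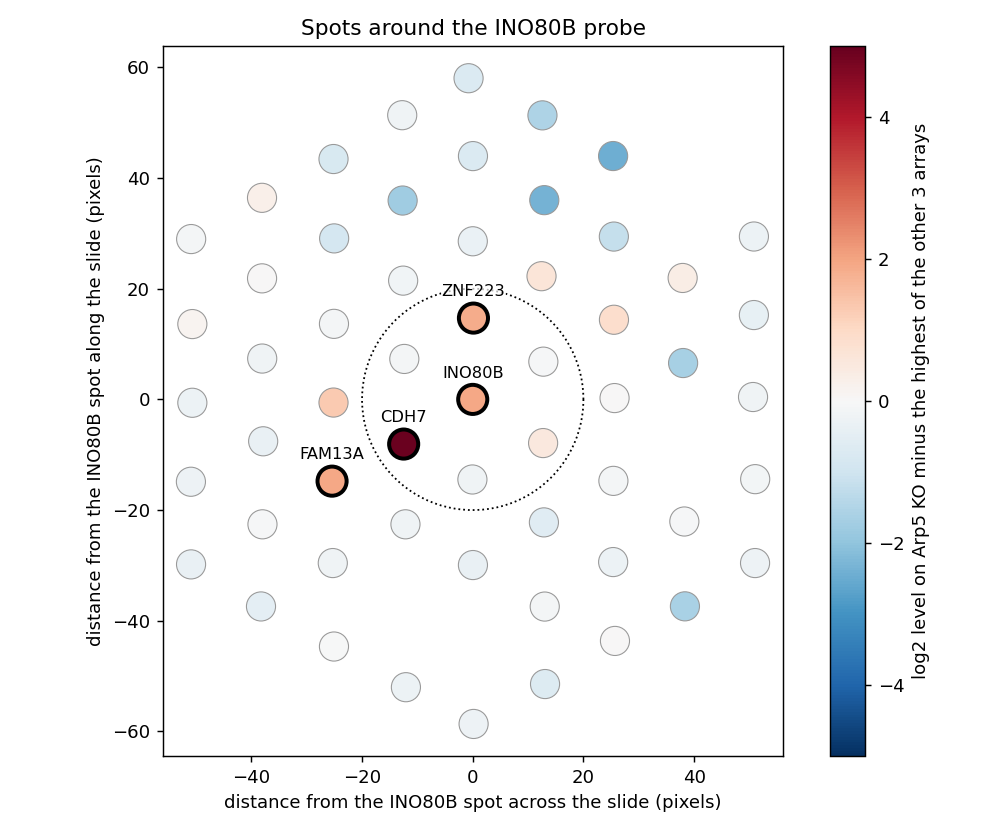
Spots within 60 pixels of the INO80B spot, placed by distance across and along the slide (pixels) and coloured by the log2 level in Arp5 KO minus the highest level on the other arrays. Thick outlines mark spots over 2-fold brighter in Arp5 KO than on each other array and well above background there, and the dotted circle is the 20 pixel limit for adjacent spots. CDH7 (4.95) and ZNF223 (1.87) lie inside the circle with INO80B, and FAM13A (1.93) lies outside it.

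In the Arp8 module, actin and ACTL6A are shared with other complexes, and ACTR8 is the specific subunit. Each Arp gene can be read in the knockout of the other. ACTR5 in Arp8 KO differed from WT by -0.11 and in Arp8 OE by -0.28. ACTR8 in Arp5 KO differed by -0.09 and -0.23 by the 2 probes, and the second is 2.82 technical SDs below WT. None of these values reached 1.5-fold, and in neither knockout was the gene of the other Arp above WT. Against the Arp8 OE array, ACTR5 in Arp8 KO was higher by 0.17 (2.09 technical SDs, software error 0.20), so its direction depends on the reference. ACTR8 in Arp5 KO was lower than Arp8 OE by both probes (differences -0.10 and -0.22).

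The remaining subunits are those found in animals and not in yeast. NFRKB, which binds the deubiquitinase UCHL5, had levels of -1.75 in WT, -1.64 in Arp8 OE, -1.66 in Arp5 KO and -1.36 in Arp8 KO. MCRS1, a forkhead-associated domain protein that is also part of the NSL acetyltransferase complex, had 1.79, 1.77, 1.88 and 1.97 in that order. TFPT, known as a fusion partner of TCF3 in childhood leukemia, had 2.24, 2.45, 2.39 and 2.60. Each of the 3 was highest in the Arp8 KO array, by 0.39, 0.18 and 0.36 over WT. The NFRKB and TFPT values exceeded 3 technical SDs (0.10 and 0.08), while 17.8% and 19.8% of tested probes were at least as far above WT in Arp8 KO.

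INO80E had levels of 1.96 in WT and 1.97 in Arp8 OE, against 2.17 in Arp5 KO and 2.19 in Arp8 KO. Its differences of 0.21 and 0.23 in the knockouts were near the software error of 0.20, and that in Arp8 OE was 0.00. INO80E thus split the arrays as INO80 did, at about the size of the software error. INO80D was dim. Its probe A_23_P209652 had -3.84 in WT and -3.72 in Arp8 OE, against -4.07 in Arp5 KO and -3.77 in Arp8 KO, all within 0.24 of WT. Its other probe, A_23_P142756, was well above background in Arp8 KO alone, at -4.89, and read -5.48 in WT, -6.19 in Arp8 OE and -6.29 in Arp5 KO. With WT raised to its lowest value well above background, the bound for Arp8 KO was 1.08-fold higher (0.12). That is under the technical SD of 0.14 and the software error of 0.52. Against Arp8 OE the bound was -0.08, so no direction is read from this probe.

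As a group, most subunits lay close to WT in Arp5 KO. Of 12 probes tested, 3 were higher past 1.5-fold and 1 lower, where 4.15% and 4.69% of all tested probes were. Past 2-fold, INO80B was higher and ACTR5 lower, where 1.69% and 2.01% were. The median difference was 0.09 against 0.0042 for all probes, and 8 of 11 probes without ACTR5 were above WT where 50.7% of all probes were. The count of 3 higher is 2 probes of one gene and the INO80B spot.

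In Arp8 KO, 2 of 13 probes were higher past 1.5-fold and 1 lower, where 10.0% and 11.2% of all probes were (21.3% together), so the share of subunit probes called is close to that of all probes. Past 2-fold, 1 INO80 probe was higher and 0 probes were lower, where 3.37% and 4.35% were, and the other INO80 probe lay just under the limit. Without ACTR8, 10 of 11 probes were above WT (all but ACTR5, the INO80D bound included), with a median of 0.18, where 52.7% of all probes were above WT and their median was 0.03. Of these 11, 6 were more than 2 technical SDs above WT and 2 more than 2 software errors. The latter are the INO80 probes.

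In the Arp8 OE array, 0 of 12 probes passed 1.5-fold, where 13.6% of all probes did, and 0 passed 2-fold, where 5.11% did. Differences ran from -0.28 for ACTR5 to 0.22 for TFPT. Without ACTR8, 7 of 10 probes were above WT here too (median 0.05), where 12095 of 24177 of all probes were. The median size of the difference, sign aside, was 0.05 against 0.23 for all probes tested. The subunits thus lay nearer to WT than the typical tested probe of this array. Brightness was not matched in this comparison.

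**Figure D4:**
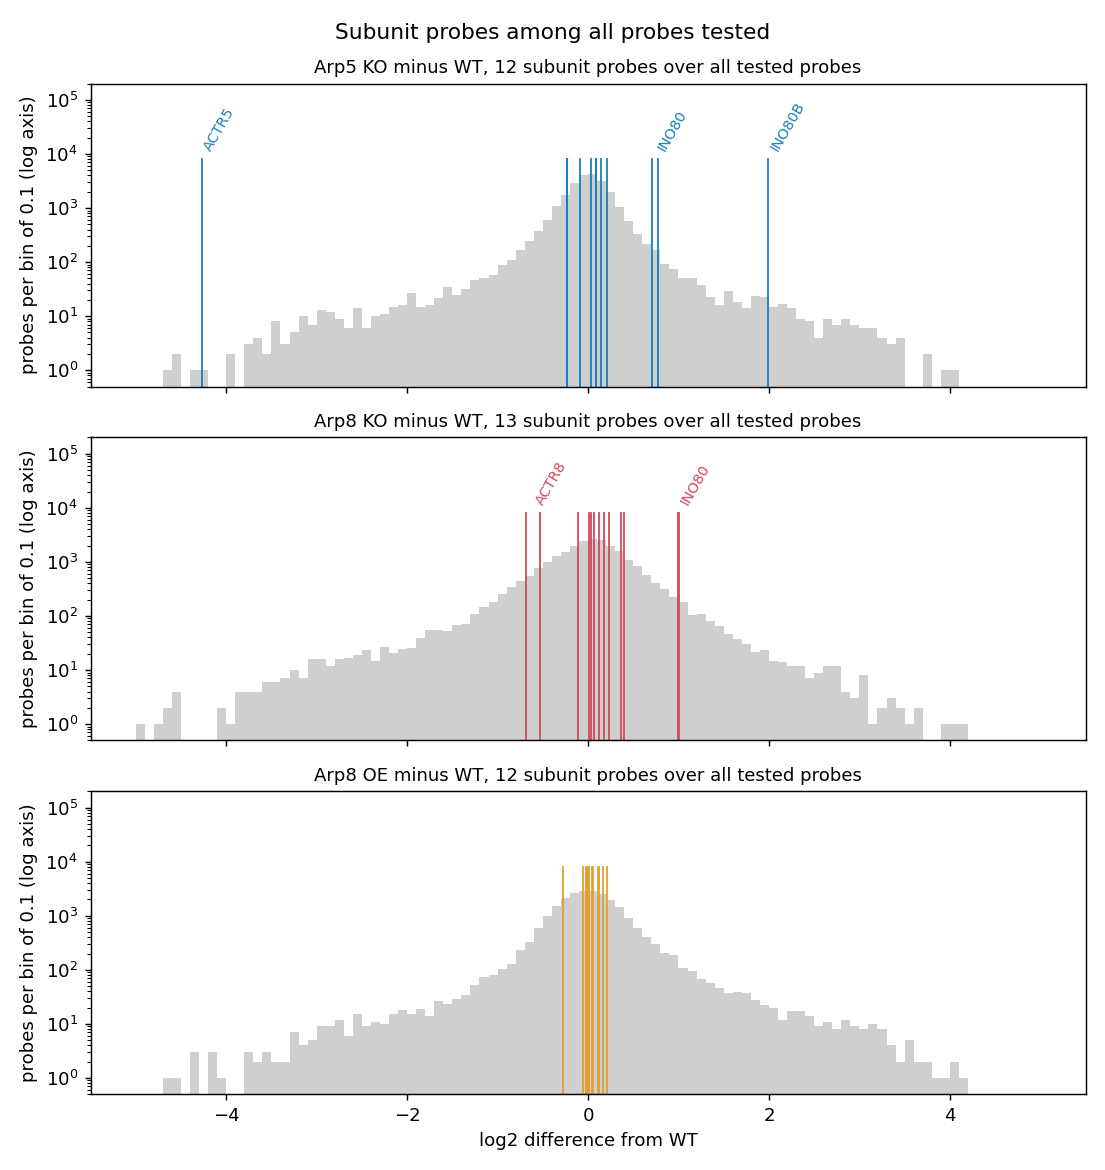
Differences from WT of all tested probes (grey, probes per bin of 0.1 on a log axis, against log2 difference) with a vertical line for each subunit probe, in 1 panel per array. In each comparison at most 3 probes lie beyond 5 on either side and are not drawn. ACTR5 and INO80B lie in the tails in Arp5 KO, INO80 lies on the right shoulder in both knockouts, and in Arp8 OE all lines lie between -0.28 and 0.22.

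Set directly against Arp5 KO, Arp8 KO had 1 subunit probe past 2-fold higher and 1 lower, where 5.71% of all probes passed in either direction. These are ACTR5 and INO80B, the probes that stood apart in Arp5 KO. Against the Arp8 OE array, Arp5 KO had 2 subunit probes past 1.5-fold higher (1 of INO80, and INO80B) and 1 lower (ACTR5), where 13.4% of all probes passed. Arp8 KO had 2 subunit probes past 1.5-fold higher (INO80) and 1 lower (ACTR8), where 16.0% of all probes passed, and 0 past 2-fold, where 5.43% did. With the targeted genes included, 6 of 12 subunit probes in Arp5 KO lay above Arp8 OE (median 0.03), where 12192 of 24136 of all probes did. In Arp8 KO, 8 of 13 lay above it (median 0.14), where 12607 of 24204 of all probes did. Against WT the same sets had 8 of 12 probes above in Arp5 KO (median 0.09) and 10 of 13 in Arp8 KO (median 0.12). With Arp8 OE as the reference, the count above was thus lower in both knockouts. The median was lower in Arp5 KO, but not in Arp8 KO.

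The subunits that INO80 shares with other complexes had 0 tested probes past 1.5-fold in any of the 3 comparisons, where 8.84%, 21.3% and 13.6% of all tested probes were, and nothing particular to the list is read from this count. The list holds RUVBL1, RUVBL2, ACTL6A, ACTB, YY1 and UCHL5, with 12 probes, of which 11 were tested. Differences ran from -0.20 to 0.07 in Arp5 KO (median -0.01), from -0.45 to 0.39 in Arp8 KO (median -0.16) and from -0.52 to 0.16 in Arp8 OE (median -0.19). Against the Arp8 OE array in place of WT, the medians turned to 0.18 in Arp5 KO and 0.13 in Arp8 KO. In both knockouts, the INO80 differences were above those of all 11 tested probes of the shared subunits.

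**Figure D5:**
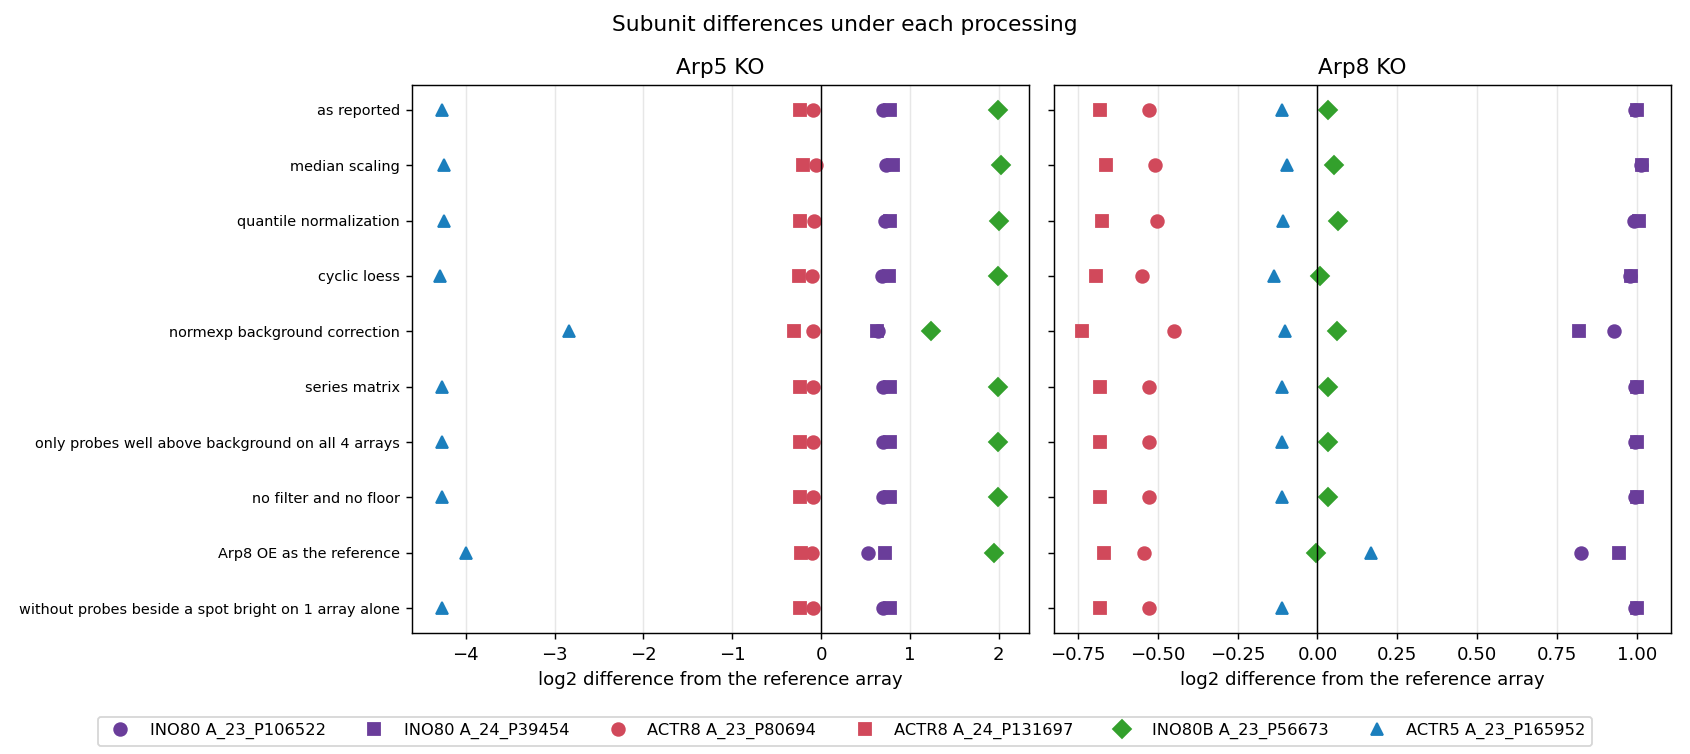
Differences of the INO80, ACTR5, ACTR8 and INO80B probes (log2, horizontal axis, different in the 2 panels) in Arp5 KO and Arp8 KO under each processing (vertical axis), against WT or, where named, Arp8 OE. INO80B has no point in the last row of the left panel because spots next to it are bright on 1 array alone. INO80 stays between 0.53 and 0.81 in Arp5 KO and between 0.82 and 1.02 in Arp8 KO.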

How the data were processed

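The 4 one-colour arrays (1 each of wild type, Arp5 KO, Arp8 KO, Arp8 OE) were grouped by the genotype in the labels. Spot intensity (linear, background-subtracted, not normalized between arrays) came from the authors' deposited scanner output of Agilent Feature Extraction 10.10.1.1. The deposited series matrix, the same intensity multiplied by 1 factor per array, served as an alternative. Levels were log2 of processed signal over the 75th percentile, with 0 outlier spots among the subunit probes. Probes well above background on either compared array were tested. Dim values below the lowest value well above background were raised to it, which gives a bound. Accessions were matched to symbols through RefSeq GRCh38.p14 for 66.4% of probes. The file headers name hg19, so no probe coordinates are given. Technical SDs came from 264 probes printed 10 times. The number of arrays limits the precision: with 1 per group no test was made. Every probe of the 10 genes is named, and of the 6 shared subunits and 9 other actin-related proteins those past 1.5-fold. The members, lists and limits were chosen with earlier results of these data known. The scripts were checked on simulated data. Alternatives were median scaling, quantile, cyclic loess, normexp (offset 50), the series matrix, other filters, gene means, Arp8 OE as reference and leaving out probes beside a spot bright on 1 array (R 4.3.3, limma 3.58.1, Python 3.11.15).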

Additional observations from a re-analysis of the deposited data

How the results depend on the processing

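Of 331 recomputed differences of subunit probes, 314 moved by less than their technical SD, 17 moved by more (8 with Arp8 OE as the reference, 8 with normexp and 1 without a filter) and 0 changed direction where called. ACTR5 in Arp5 KO ran from -4.29 to -2.84 and INO80B from 1.23 to 2.02, both closest to 0 with normexp, whose offset shrinks dim differences. Of 261 list values, 242 stayed within 1.5 times or the spread and 19 moved. In Arp8 KO the subunit probes past 2-fold were 2 with median scaling and 0 with cyclic loess, normexp, the mean over the probes of a gene and Arp8 OE as the reference, since both INO80 probes lie at the limit. In Arp5 KO there was 1 without probes beside a spot bright on 1 array, which leaves out INO80B, and in Arp8 OE 1 past 1.5-fold without a filter. The shared subunits past 1.5-fold numbered 1 in Arp5 KO and 1 in Arp8 KO without a filter, and with Arp8 OE as the reference their medians were 0.18 and 0.13. The other actin-related proteins past 1.5-fold in Arp8 OE numbered 1 with median scaling, 1 with quantile normalization and 1 without a filter, which also passed 2-fold (1). In Arp8 KO they numbered 0 with the gene mean and 0 without probes beside a bright spot, and with Arp8 OE as the reference their medians were 0.11 in Arp5 KO and 0.16 in Arp8 KO. With the filter dropped, the median difference of all probes from WT was -0.06 for Arp5 KO, against 0.0042 with the filter. For Arp8 KO this median was -0.08 against 0.03, and for the Arp8 OE array 0.11 against 0.0002. No paired analysis was possible because each group has 1 array, and for the same reason no replicate could be left out.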

Other observations

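The actin-related proteins outside the INO80 complex, the relatives of Arp5 and Arp8 in dynactin (ACTR1A, ACTR1B, ACTR10), the Arp2/3 complex (ACTR2, ACTR3, ACTR3B, ACTR3C) and other remodelers (ACTR6, ACTL6B), had 16 probes, of which 15 were tested. In Arp5 KO 0 passed 1.5-fold, where 8.84% of all tested probes did, and differences ran from -0.47 to 0.34 (median -0.05). In Arp8 KO 1 did, where 21.3% did, and differences ran from -0.52 to 0.94 (median -0.06). In Arp8 OE 0 did, where 13.6% did, from -0.58 to 0.32 (median -0.18). Against the Arp8 OE array the medians turned to 0.11 in Arp5 KO and 0.16 in Arp8 KO. The probe past 1.5-fold was A_23_P123193 for ACTR3B, with a level of 0.45 in Arp8 KO, against -0.48 in WT, -0.17 in Arp8 OE and -0.15 in Arp5 KO. The other ACTR3B probe, which is assigned to a different RefSeq transcript of the gene, differed from WT by 0.16 in Arp8 KO. The probes of this gene thus disagree, and whether its transcripts differ was not tested. Of the 5 spots adjacent to the first probe, 1 was bright on the Arp5 KO array alone.

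All 10 subunit genes had a RefSeq start window, 12 in all since NFRKB and TFPT have an extra one each. In the 250 bases before the start, the ETS motif was in 3 of 12 windows (INO80B, INO80E and TFPT) against 8.52% of all windows, and the YY1 motif in 1 of 12 (INO80E, positions -177 to -170) against 3.86%. The NRF1 motif and the antioxidant response element were in 0 of 12, against 1.03% and 10.9%. The median GC content was 61.2% in these windows and 58% in all. INO80E, the gene with matches to both motifs, was 0.21 and 0.23 above WT in the knockouts, and these counts are a description of letters only.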
